A study of Drosophila melanogaster with 2 samples.

Results

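The ush and cbt locus is a stretch of chromosome arm 2L in the fruit fly genome in which 2 genes overlap. It was chosen by its signal: the peak listed with the highest pooled signal away from any annotated transcription start lies there, in an intron of ush and upstream of cbt. Its values below are therefore a description of the locus. The members are ush and cbt, 2 of 18277 annotated genes, and every reproducible peak whose summit lay from 20 kb before to 20 kb after them was mapped. That window spans positions 456220 to 560560 of 2L on genome build dm6 (104.3 kb) and holds 15 of the 3314 reproducible peaks, numbered site 1 to site 15 from left to right.

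The study mapped CG30431, a protein with zinc fingers and a zinc-associated domain, by chromatin immunoprecipitation and sequencing (ChIP-seq), which recovers the DNA that lies with a protein on chromatin. It holds 1 group of 2 biological replicates: whole Drosophila melanogaster embryos of 0 to 24 h, of pooled sex, from strain CG30431-GFP. These transgenic flies express CG30431 with a C-terminal green fluorescent protein (GFP), which an antibody against GFP precipitated, and both replicates come from the same fly line. Whether the untagged protein was present as well is not given in the sources used here, and because all embryonic cell types were pooled, a weak peak in many cells and a strong peak in few cannot be told apart.

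The gene ush (u-shaped) encodes a multi-zinc-finger cofactor of the Friend of GATA (FOG) family, which binds GATA transcription factors such as Pannier and Serpent and changes what they do in the blood lineage, the heart, the dorsal thorax and the amnioserosa, the extraembryonic tissue over the back of the embryo. The gene cbt (cabut) encodes a zinc-finger transcription factor related to the Krüppel-like factors, which is needed for dorsal closure of the embryo and is known for links to sugar sensing and the circadian clock. Both genes are read from the same stretch of DNA in opposite directions.

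ush (FBgn0003963) runs from 476220 to 540560 on the forward strand, 64341 bp, with 5 annotated transcripts that begin at 4 starts (476220, 490835, 523466 and 523736). cbt (FBgn0043364) is 3243 bp long, from 476446 to 479688 on the reverse strand, with 3 transcripts that share the start at 479688. The whole of cbt sits inside the first intron of the longest ush transcripts. A peak just upstream of cbt is thus also a peak inside ush, and proximity does not say which gene a peak serves.

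Sequences around the pair of strongest sites are shown first, since the locus was chosen for site 5 and site 4 is its nearest strong neighbour. Both are RefSeq dm6 sequence with 100 bases on either side of the summit, the position of highest signal, forward strand, 5′ to 3′. At site 5 (chr2L:480981-481181) the capitals mark the only matches to any of the 12 motifs searched, an overlapping GATAA and CGATA on the reverse strand. At site 4 (chr2L:479972-480172) the capitals mark a stretch of 14 bases that recurs at other sites of the locus.
Site 5: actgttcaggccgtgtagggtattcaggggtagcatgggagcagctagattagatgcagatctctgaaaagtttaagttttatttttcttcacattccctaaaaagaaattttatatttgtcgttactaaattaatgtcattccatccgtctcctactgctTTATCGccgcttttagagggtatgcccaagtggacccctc
Site 4: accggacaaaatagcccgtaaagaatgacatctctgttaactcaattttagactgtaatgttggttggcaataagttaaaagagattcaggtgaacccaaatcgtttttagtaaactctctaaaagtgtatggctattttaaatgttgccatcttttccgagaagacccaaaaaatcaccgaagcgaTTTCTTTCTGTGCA

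The strongest peak lay 1393 bp upstream of the cbt start. Site 5 (480913 to 481258, summit 481081) had a signal of 688 in replicate 1, 576 in replicate 2 and 1254 in the authors' pooled list. It was 7th in each of the 3 lists, and 1st of the 1848 reproducible peaks with no start within 500 bp. The next such peaks, at Lk6 and CG11050, had pooled signals of 1115 and 1105, so site 5 stood 1st by a modest margin. The signal is the authors' own value per peak and its scale is not stated.

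A second strong peak stood 1009 bp away, at the cbt promoter. Site 4 (summit 480072) was listed at 223 in replicate 1, 205 in replicate 2 and 433 in the pooled list, and its summit lay 384 bp upstream of the cbt start. It was 188th in replicate 1, 117th in replicate 2 and 142nd in the pooled list. Of the 176 reproducible peaks with a pooled signal of 400 or more, 9 had another such peak within 1100 bp, limits that were picked after the pair was seen. Site 6 (summit 482054), 973 bp to the right of site 5, was far weaker, with 48.5 in replicate 1, 37.0 in replicate 2 and 87.5 in the pooled list.

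cbt thus had a peak at its start and none in its body, while ush had the reverse. No reproducible summit fell between the ends of cbt, and 12 fell between the ends of ush. None of the 4 ush starts had a reproducible summit within 500 bp, and none of the 30000 pooled entries, the weak ones included, had its summit that near to a ush start. The nearest were site 15, at 529 bp before the start at 523466, and site 9, at 574 bp before the start at 490835, which the noncoding gene lncRNA:CR46258 shares, so this absence depends on where the limit is set. The cbt start had 2 pooled entries within 500 bp, site 4 and a weak one of signal 31.7. For comparison, 12.8% of the 13968 protein-coding genes had a reproducible summit within 500 bp of a start, 8.86% had one in the body and 17.2% had either.

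**Figure D1:**
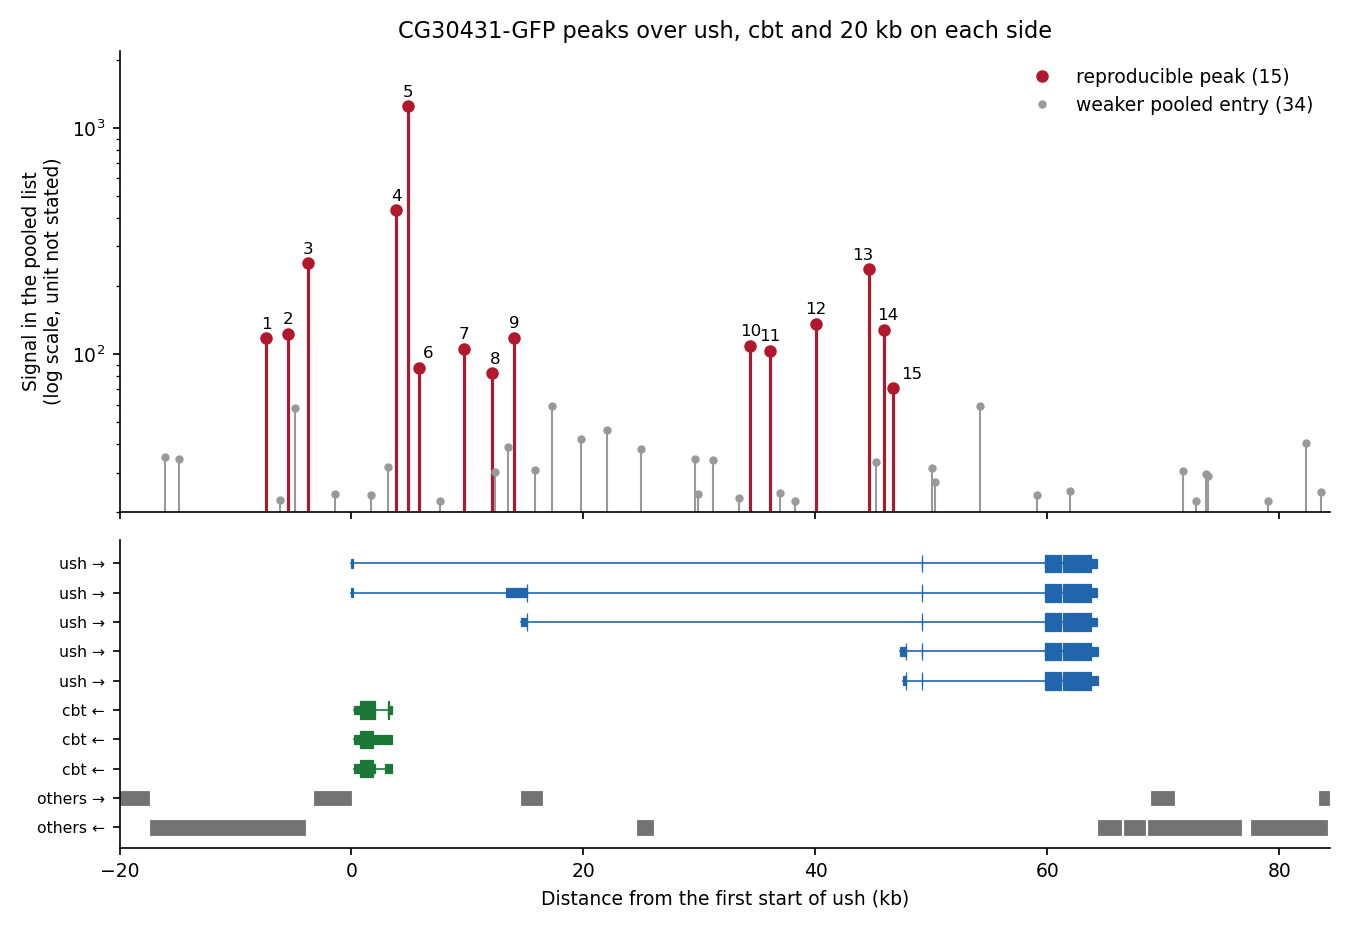
The upper panel plots the pooled signal (log scale, unit not stated) of the 15 reproducible peaks (red, numbered) and 34 weaker pooled entries (grey) against the distance in kb from the first start of ush. The lower panel draws the transcripts of ush and cbt and the other genes of the window, with thick boxes for coding exons, thinner boxes for untranslated exons and arrows for the direction of reading. Sites 4 and 5 stand beside the cbt start, and no reproducible peak lies to the right of site 15.

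All 12 peaks inside ush lay in a single intron. The first intron of transcript FBtr0333012, from 476332 to 525391, is 49060 bp long and contains every one of them. In transcript FBtr0333013 an extra 5′ exon divides the same stretch, so that 5 peaks fall in its first intron of 13185 bp, 6 in its second of 34033 bp, and site 9 in the 5′ untranslated part of the exon between them. The coding exons of ush held no reproducible summit. Its next intron, 10586 bp long, held none either, though 4 weaker entries lie there. The 17.6 kb from site 15 to the end of ush held 5 weaker entries in all, and the 20 kb to the right of the gene held 7.

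For description, the peaks along the intron are grouped here into runs, drawn after their positions were seen and by no rule on distance. Gaps within a run can be as wide as those between runs, such as the 3974 bp from site 11 to site 12. The widest gap of the window is that between sites 9 and 10. Sites 4 to 6 spanned 1982 bp beside cbt. Sites 7 to 9 spanned 4375 bp before the ush start at 490835, with pooled signals of 106, 82.4 and 118. Sites 10 to 15 spanned 12335 bp and ended just before the pair of downstream starts. Between sites 9 and 10 lay 20341 bp with no reproducible peak and 9 weaker entries of pooled signal 23.3 to 58.9, of which 4 were found in both replicates.

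Within the downstream run, site 13 was the strongest. It had 130 in replicate 1, 105 in replicate 2 and 238 in the pooled list, with its summit 2607 bp before the start at 523466. The remaining 5 peaks of the run had pooled signals of 71.1 (site 15) to 137 (site 12). Site 15 is the weakest peak of the locus and lies near the limit of the reproducible set, whose lowest signal is 70.8.

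To the left of ush, 3 peaks lay in or beside CG4297. Site 3 (summit 472484) was listed at 136 in replicate 1, 117 in replicate 2 and 252 in the pooled list, and lay 284 bp upstream of the CG4297 start and 529 bp from that of MED15, a gene of the Mediator complex read in the opposite direction. Sites 1 and 2 fell in CG4297 introns with pooled signals of 118 and 123. Site 1 was the only peak of the locus with a higher value in replicate 2 (60.8) than in replicate 1 (58.2).

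By annotation, 2 of the 15 summits (13.3%, sites 3 and 4) lay within 500 bp of a start, against 44.2% of all 3314 reproducible peaks. Of the others, 12 were intronic and 1 was in a 5′ untranslated region. The locus was picked for a peak away from starts, so its share at starts is not independent of that choice. Of the 13 genes that reach into the window, 11 of them protein-coding, cbt and CG4297 had a reproducible peak at a start. Over all protein-coding genes the share was 12.8%.

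The replicates ranked the sites alike at the top and less so among the weak ones. Sites 5, 4, 3 and 13 were the 4 strongest of the window in both replicate lists, in that order. The value in replicate 1 divided by that in replicate 2 had a median of 1.31 over the 15 sites, and 1.34 over the 3267 reproducible peaks with both values (quartiles 1.13 to 1.63). The lists were made separately and may differ in read depth, which is unknown, so the ratio is not read as a difference in binding.

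Sites 7 and 8 leaned most towards replicate 1. Site 7 was listed at 76.5 in replicate 1 and 29.6 in replicate 2, a ratio of 2.58. Site 8 had 57.6 and 23.0 in replicates 1 and 2, a ratio of 2.51, and 9.79% of all peaks with both values exceeded 2. A weaker entry 200 bp from site 8 overlaps it, and the same entry of replicate 2 holds both summits. All 15 sites were among the 3314 strongest entries of replicate 1, and 12 were also among those of replicate 2. The missing ones were sites 7, 8 and 15, and over all reproducible peaks 78.7% were among the strongest of both. Replicate summits lay a median of 18 bp apart at the 15 sites and 21 bp apart over all peaks, with the widest gap in the locus, 157 bp, at site 15.

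**Figure D2:**
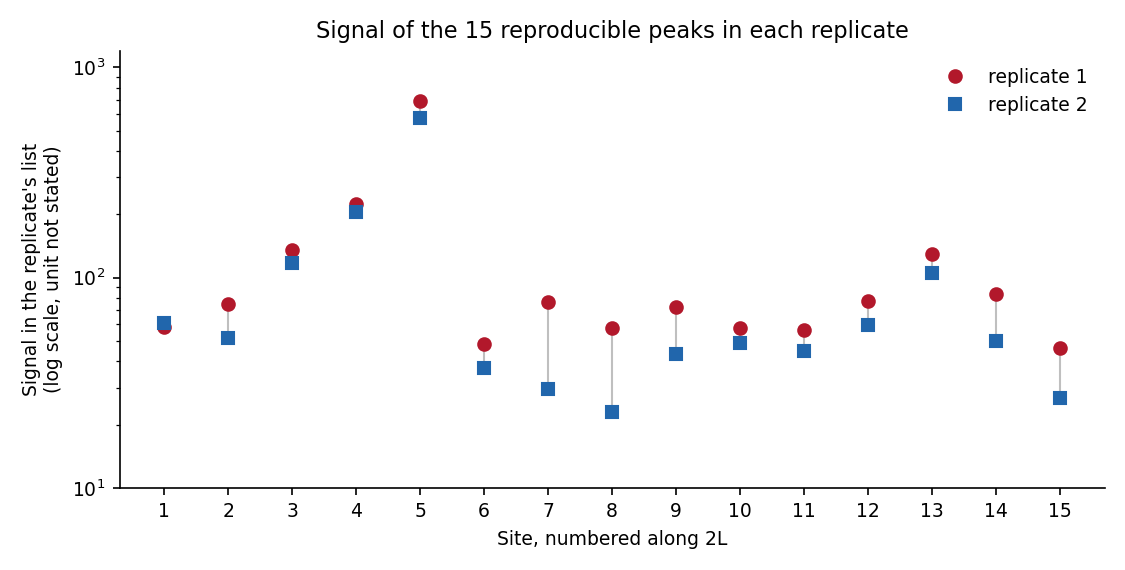
Signal of the 15 reproducible peaks (log scale, unit not stated) in replicate 1 (red circles) and replicate 2 (blue squares), with a grey line joining the values of a site. Site 5 is highest in both replicates, replicate 1 is higher at every site but site 1, and the widest gaps are at sites 7 and 8.

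Few genes had as many peaks in their body as ush. Its 12 peaks were 3rd among the 13968 protein-coding genes, after CG1677 and kirre, which had 16 each but are 124709 and 394149 bp long. kirre encodes an immunoglobulin-family adhesion protein of myoblast fusion. Per length, ush had 1.87 peaks per 10 kb, CG1677 had 1.28 and kirre 0.406. Among the 313 protein-coding genes of 50 kb or more ush had the most per length, the median gene had 1 peak and 150 had 0. These rankings were looked up after the peaks of ush had been counted, and in replicate 2 alone ush had 9 of the 3314 strongest entries and was 5th.

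**Figure D3:**
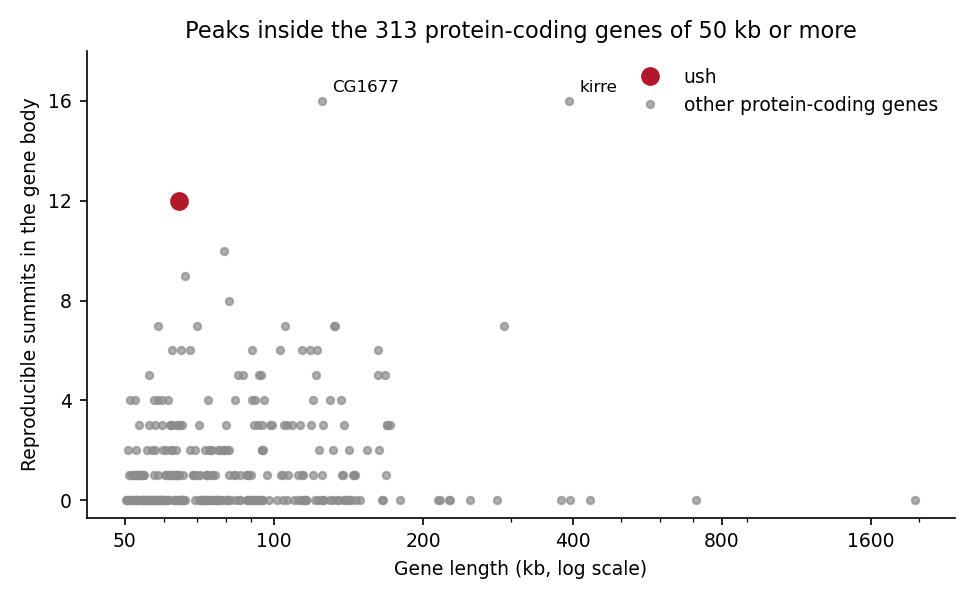
Reproducible summits in the gene body against gene length (kb, log scale) for the 313 protein-coding genes of 50 kb or more, with ush in red and the others in grey. ush has 12 peaks in 64341 bp, and the only genes above it, CG1677 and kirre, are longer.

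The window as a whole held 1.44 peaks per 10 kb, against 0.248 over the 133.9 Mb of the 6 arms searched. When the arms were divided into 1280 tiles of the length of the window, the median tile held 2 peaks, 3 tiles held 15 or more and the highest held 18. Outside the window the nearest reproducible peaks were 14128 bp to the left (pooled signal 245) and 13868 bp to the right (146), so none lay just beyond its limits. The median height of the peaks was ordinary, though site 5, for which the locus was chosen, was 7th in the pooled list. Pooled signals of the 15 peaks ran from 71.1 to 1254 with a median of 118. The median over all reproducible peaks was 121, and 7 of the 15 were above it.

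Below the reproducible set, the pooled list had 34 weaker entries in the window, with signals of 22.4 to 59.4. Their median was 30.4, against 28.6 over all 26686 weaker entries. Of the 34, 11 (32.4%) lay inside an entry of both replicate lists, 17 in one list only and 6 in neither, and over all weaker entries 29.8% lay in both. Reproducible peaks made up 15 of the 49 pooled entries of the window (30.6%), against 11.0% of the 30000 in the list.

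Of the weaker entries, 3 had a signal above 50. One lay inside CG4297, 222 bp from a start, with 31.7 in replicate 1 and 32.3 in replicate 2. A second, at 493518 in the long ush intron, had 44.3 in replicate 1 and 12.1 in replicate 2. The third was at 530403, in the ush intron that held no reproducible peak, with 26.6 in replicate 1 and 30.8 in replicate 2. The highest of the 3, at 59.4, and site 15, at 71.1, are the nearest values on either side of the limit of the reproducible set within the window.

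A word common at peaks of this protein was found at few sites of the locus. The 5-base core CACTG, which came from earlier results on these data, occurred on either strand within 100 bp of the summit at 4 of the 15 sites (26.7%), against 51.0% of all reproducible peaks. The sites were 1, 11, 14 and 15, with pooled signals of 118, 104, 128 and 71.1. Neither site 4 nor site 5 had it. Over whole peak intervals the core was at 6 sites, against 64.1% of all peaks. Any of the 8-base words CACTGTGC, CACAGTGG, CACTGAGA and TACACTGA, which all contain the core or its reverse complement, occurred at 1 site (TACACTGA at site 11), against 14.3% of all peaks. Replicate 1 alone had 16 of its strongest entries in the window, of which 0 held TACACTGA and 1 held CACTGAGA. Within the window these words had 19 matches, some overlapping each other, and 1 was within 100 bp of a reproducible summit, against 744 of 19106 (3.89%) in the genome. A match is a description and not a binding site, and a missing one says only that these letters are not in the window searched.

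Other motifs were found at 0 to 6 of the sites. GATAA, the core bound by the GATA factors that the ush protein works with, was at 6 sites (40%), against 39.6% of all peaks. CGATA, bound by the boundary protein BEAF-32, was at 3 sites (26.0% of all peaks). GAGAG, the word of GAGA factor, was at 4 sites (23.1% of all peaks), where site 10 held a repeat of it. Replicate 1 alone had 16 of its strongest entries in the window, and 7 of those held GAGAG. Replicate 2 alone had 13, and 5 of those held it. The share over all strongest entries of a replicate was not counted. Within 50 bp of the summit GAGAG was at 2 of the 15 sites, against 9.6% of all peaks. Over whole peak intervals it was at 10 of the 15 sites, against 37.4% of all peaks, with interval width not matched. CACCC, a core of Krüppel-like factors, was at 2 sites (15.8% of all peaks). In either replicate alone it was at 1 of the strongest entries in the window, which numbered 16 in replicate 1 and 13 in replicate 2. TATCGATA, the DNA replication-related element, which contains CGATA, GGTCACAC, the core promoter word called Motif 1, and AGGNGGC, a core of the insulator protein CTCF, were at 0 of the 15 sites, and at 2.08%, 1.51% and 5.73% of all peaks. The site windows were poor in G and C, with a median of 36.3% (28.4% to 49.8%), against 35.3% over all peaks and 46.1% over the whole window of the locus.

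A longer stretch recurred at some sites. Reading the windows showed that sites 1, 3, 4 and 15 hold a similar run of 14 bases, and the letters that these 4 share spell TTTCNNNCNGTNCA, with 9 fixed letters and 5 open ones. It was kept after about 15 related patterns had been looked at with their counts over all peaks in view, and the limits used below were set after that as well, so the counts describe these peaks and are no independent check. Within 200 bp of the summit it was found at 5 of the 15 sites, at site 13 besides those that spelled it, and again at site 1 on the other strand. Each match is shown with 8 bases on either side, in its own direction, with the 14 bases in capitals.
Site 1, reverse strand, chr2L:468815-468844: aaatccccTTTCTTTCTGTGCAtcgcccct
Site 1, forward strand, chr2L:468966-468995: ctagggcaTTTCTTCCTGTGCAgagagggc
Site 3, forward strand, chr2L:472560-472589: cactccgaTTTCTTCCTGTACAgacatatc
Site 4, forward strand, chr2L:480151-480180: cgaagcgaTTTCTTTCTGTGCAggacacag
Site 13, reverse strand, chr2L:520739-520768: aaaaaataTTTCTCTCAGTGCAtaagtcgt
Site 15, forward strand, chr2L:523016-523045: gcaccccaTTTCGCTCGGTGCAttcagata

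In all 6 matches the stretch lay downstream of the summit when read in its own direction, with its centre 57.5 to 105.5 bp away. Among the other 3299 reproducible peaks, 258 (7.82%) held the stretch within 200 bp, against 0.982% of 401-bp tiles of the genome. Of their 274 matches, 256 (93.4%) lay downstream of the summit, and the position of the centre had a median of 74 bp downstream (quartiles 39.8 and 100.5 bp). The stretch overlaps the core, since some spellings of its open letters contain CACTG on one strand or the other. At site 13 the stretch contains it on the opposite strand, just outside the 100 bp searched for the core. Of the 6 matches at the locus 1 contains the core, against 194 of the 274 at other peaks (70.8%). Without those, 79 of the other peaks (2.39%) held the stretch, against 0.577% of tiles, and 72 of 80 matches lay downstream. Site 5, the strongest of the locus, does not hold the stretch, and neither do any of the 34 weaker entries, against 2.65% of all weaker entries.

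**Figure D4:**
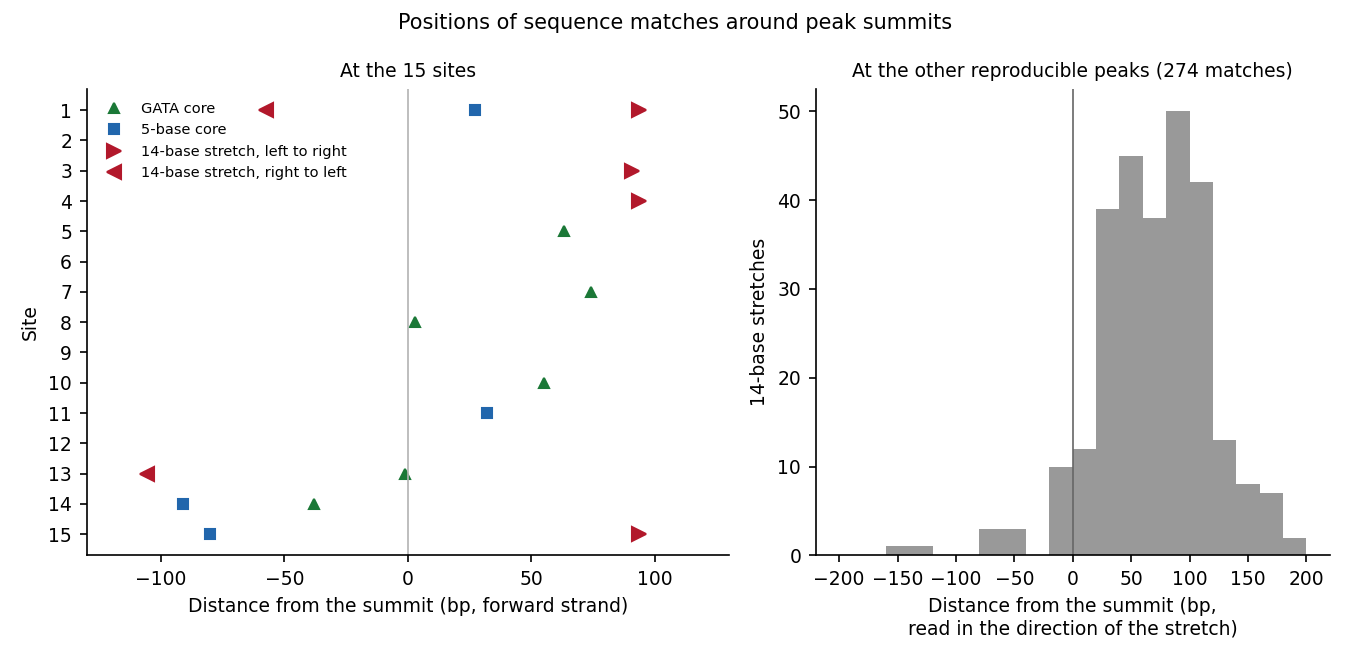
Left, positions of matches around the summits of the 15 sites in bp on the forward strand, with red arrowheads for the 14-base stretch pointing in its direction, blue squares for the 5-base core and green triangles for the GATA core. Right, the number of 14-base stretches at the other reproducible peaks by distance from the summit, read in the direction of the stretch, where 256 of 274 lie to the right of 0.

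Among 654 protein-coding genes with their strongest body peak in an intron and away from starts, those nearest to ush in log2 signal over the pooled list and both replicates were Lk6, CG11050, CG32772 and Trl. Their distances to ush were 0.33, 0.34, 0.70 and 0.89 on the log2 scale. Lk6, a kinase of the translation factor eIF4E, had 627 in replicate 1, 485 in replicate 2 and 1115 in the pooled list, with its summit 969 bp from a start. Trl, which encodes GAGA factor, had 524 in replicate 1, 371 in replicate 2 and 897 in the pooled list, at 1529 bp. Their bodies held fewer peaks than that of ush, 3 in Trl and 1 in each of the others, but these genes are also much shorter, from 6060 to 13527 bp.

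Genes related to ush and cbt had peaks at their starts about as often as other genes, while the share with a peak in the body or at a start was higher. Over 6 lists, 64 genes in all, 9 (14.1%) had a reproducible summit within 500 bp of a start, against 12.8% of protein-coding genes. With a summit anywhere in the body counted as well it was 25 (39.1%), against 17.2% of protein-coding genes. Long genes have more room for peaks, and gene length was not matched in these counts. The 64 genes also include ush and cbt themselves, which were chosen by their signal. Both are among the 25, and cbt is among the 9, so these counts are not independent of that choice. Of the GATA and FOG factors 0 of 6 had a start peak, and only ush, which was chosen for its intron peak, had a peak in its body. Of the blood cell genes 0 of 14 had a start peak as well. A peak in the body was found at 5, against 8.86% of protein-coding genes, but the chosen gene ush is among the 5. The others were zfh1, Pvf3, kn and lz, named after their values were seen. The u-shaped group, whose mutants share a failure of germ band retraction, and amnioserosa genes had a start peak at 2 of 10 (20%). These were peb, a zinc-finger factor of the amnioserosa (pooled signal 120), and InR, the insulin receptor (112). Over protein-coding genes the share was 12.8%, and among the strongest 50% of reproducible peaks this list had 0. With bodies counted as well it was 5 of 10, the chosen gene ush included, against 17.2% of protein-coding genes.

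Of the 8 Krüppel-like and SP factors, only cbt, itself a member of the chosen locus, had a peak at a start, against 12.8% of protein-coding genes. The bodies of luna and dar1, named after their values were seen, held peaks. Among the genes of Jun kinase and Dpp signalling in dorsal closure 1 of 16 had a start peak, kay, the Fos homologue (73.3), whose start peak was not among the 3314 strongest entries of replicate 2, and 8 had one in the body or at a start, against 17.2% of protein-coding genes. Of the circadian clock genes 5 of 14 (35.7%) had a start peak, against 12.8% of protein-coding genes. The strongest were at sgg, the glycogen synthase kinase 3 homologue (333), dco, the casein kinase 1 also called doubletime (165), and Pdp1, a bZIP activator (139). Among the strongest 50% of reproducible peaks this list had 3, and the share of protein-coding genes at that limit was not counted. The list had 5 in replicate 1 alone and 6 in replicate 2 alone.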

How the data were processed

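ChIP-seq of CG30431-GFP in whole embryos gave 1 group of 2 biological replicates, per the labels. Chromatin was sonicated to 200 to 800 bp, per the labels. The authors deposited peak lists on dm6 for each replicate, for both pooled and for the reproducible set. The signal of each peak is the authors' own and its scale is not stated. The deposited −log10 q-value was not used to choose peaks. The aligner and peak caller are not given in the sources used. No read counts were used, so depth is unknown.

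The genes, gene lists and motifs were chosen with earlier results of these data known. Starts and exons came from Ensembl release 115 (BDGP 6.54) without transposable elements, and sequence from RefSeq. A peak at a start had its summit within 500 bp. For each replicate the strongest entry over the pooled summit was taken as its value. Motifs were matched on both strands within 100 bp of summits. Named genes were ush, cbt, genes of the window with a peak, the 4 genes most like ush and the 3 of each list with the strongest start peaks. MED15 is named as a landmark, and CG1677, kirre and the genes with body peaks were named after their values were seen. No test was made, since 1 group of 2 replicates chosen on its signal allows none. Of the steps, only distances to starts, values matched from replicate lists and motif finding were tested on simulated data. Alternatives were other distances, match rules and windows, the strongest 50% of peaks, and either replicate alone. Lists on dm3 were not used here. Python 3.11.15 was used with numpy 2.4.6, pandas 2.3.3 and matplotlib 3.10.9.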

Additional observations from a re-analysis of the deposited data

How the results depend on the processing

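Among the strongest 50% of reproducible peaks the window held 7, ush held 5 and was 6th by peaks in its body, and 4 genes of the lists had a peak at a start. With either replicate alone (its 3314 strongest entries) the window held 13 to 16 peaks, of which 2 to 3 were at starts. Of these peaks 3 to 4 held the core. ush held 9 to 13 of them and was 3rd to 5th. In each case 9 list genes had a start peak, though in replicate 2 alone the dorsal closure list had 0. Flanks of 10 and 40 kb gave 15 and 18 peaks. Starts within 200 bp left 0 promoter peaks and within 1000 bp gave 5. The share of all peaks at these 2 limits was not counted, so these counts have no background beside them. Per length among genes of 50 kb or more ush was 1st, a choice made after seeing the data. The core was at 2 sites within 50 bp of the summit (24.1% of all peaks) and at 6 over whole peak intervals (64.1%). Counting gene bodies as well as starts gave 25 list genes with a peak, ush and cbt included (39.1%, against 17.2% of protein-coding genes). The 14-base stretch was at 4 sites within 100 bp and 5 within 300 bp. Those 4 are the sites that spelled it, read in windows of that size, so the first count was fixed by that choice. The median signal over the sites in each replicate and the 11 weaker entries in both replicates did not change under the other match rules. No paired analysis was possible because there is 1 group. Read depth is unknown, so no value here has a counting error.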

Other observations

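Each replicate list had entries in the window that the pooled list did not. Replicate 1 had 37 entries there, of which 2 overlapped no pooled entry, and replicate 2 had 51, of which 15 overlapped none. The strongest of these had a signal of 22.2 in replicate 1 and 16.9 in replicate 2, below the value of every reproducible peak of the window in the same list (at least 46.3 in replicate 1 and 23.0 in replicate 2).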
